A study of Mus musculus with 8 samples.

Results

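Transcripts of 7 genes of cholesterol synthesis and its control were followed in primary mouse hepatocytes. They are Hmgcs1, Idi1, Fdps, Sqle and Lss, which encode enzymes of the pathway, Srebf2, which encodes the transcription factor SREBP2, and Insig1, which encodes a sterol sensor. The genes were given as a list, and all 7 were found by symbol among the 55450 gene identifiers of the count files. All 7 were among the 15468 genes tested.

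The hepatocytes came from livers of C57BL/6 mice at postnatal week 8 and were kept in a serum-free basal medium with dexamethasone. LSKO cells carried Alb-cre(+/+);Slc39a8(F/F), a liver-specific knockout of the metal and selenite transporter ZIP8 in which the albumin promoter, active in hepatocytes, drives the Cre recombinase. WT cells carried Slc39a8(F/F), the floxed gene without Cre. LSKO cells received manganese (MnCl2), iron (FeCl2), sodium selenite or zinc (ZnCl2) at 2 µM, with 1 library for each, and untreated LSKO and untreated WT cells gave 2 libraries each, so that every treated culture was a knockout culture and no metal was given to WT cells. The sources differ on the incubation time and do not state whether replicates are separate animals, so a p describes the spread between these libraries, which may be technical.

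Slc39a8 had 30 reads with selenite, 45 with zinc, 47 with iron and 75 with manganese, against 185 and 51 in untreated LSKO cells and 367 and 356 in WT cells, so that LSKO replicate 1 kept more of its reads than any other LSKO library. Reads in genes ranged from 19943899 to 27731054 per library. The manganese library stood apart, with 72.2% of its reads in genes and 4.48% in no feature, against 39.3% to 42.1% and 42.3% to 45.6% in the other 7. Hepatocyte markers, summed over 8 genes, ran from 28022 to 48415 normalized CPM in the 6 LSKO libraries, against 19163 and 20191 in WT cells. Sums of 8 sinusoidal endothelial markers were 106 to 214 in LSKO libraries, against 262 and 279 in WT cells, and those of 8 macrophage markers 244 to 468 against 188 and 206. Over the 8 libraries, stellate cell markers (8 genes, 17.1 to 50.2) and cholangiocyte markers (6 genes, 25.9 to 88.1) were lowest with iron, and Timd4, Krt7 and Cftr were at 0 in 2 to 3 libraries each. In such bulk samples, fewer cells of a type and less RNA per cell cannot be told apart. The part of these differences in the results below was not tested.

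Cholesterol is built from acetyl-CoA through mevalonate, the isoprenoids, squalene and lanosterol. When sterols are scarce in the endoplasmic reticulum, SREBP2 is carried to the Golgi and cleaved, and its released fragment enters the nucleus and switches on most genes of the pathway, its own included. INSIG proteins hold SREBP2 and its escort SCAP in the endoplasmic reticulum when sterols are plentiful, and the liver is a main site of both synthesis and disposal of cholesterol.

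SREBP2 binds sterol regulatory elements, often next to CCAAT boxes bound by NF-Y. Promoter sequences from RefSeq (build GRCm38.p6) were found for 5 of the 7 genes, and the 250 bases before the annotated start were searched on both strands for the sterol element core TCACCCCA, the CCAAT box CCAAT, the GC box GGGCGG and the E-box CACGTG. The core was found in Hmgcs1 and Srebf2, and in 1.34% of all 32851 promoters. A CCAAT box was found in all 5 genes, with 3 in Hmgcs1, 2 in Idi1 and 1 each in Srebf2, Insig1 and Lss, and in 33.8% of all promoters. Of 17 enzyme genes of the pathway with a promoter sequence, 16 held a CCAAT box and 1, Hmgcs1, the sterol core. A GC box was also found in all 5 genes (32.7% of all promoters), and the E-box in Insig1 alone of the 5 (6.02%). No match overlapped another in these 5 windows. The 3 sequences below show the promoter with a core and the most CCAAT boxes, that of the regulator itself and that of the sensor. They are printed 5′ to 3′ with sterol core, CCAAT box and E-box in capitals (a CCAAT box on the other strand reads ATTGG), and stop at the start of the transcript in RefSeq or in GENCODE, whichever comes first.
Hmgcs1, chr13:119690101-119690350, + strand: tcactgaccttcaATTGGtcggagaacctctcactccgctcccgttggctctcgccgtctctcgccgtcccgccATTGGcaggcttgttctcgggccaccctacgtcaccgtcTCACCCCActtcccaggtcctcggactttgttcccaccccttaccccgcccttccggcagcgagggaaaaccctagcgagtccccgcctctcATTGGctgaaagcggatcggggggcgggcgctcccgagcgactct
Srebf2, chr15:82147019-82147180, + strand: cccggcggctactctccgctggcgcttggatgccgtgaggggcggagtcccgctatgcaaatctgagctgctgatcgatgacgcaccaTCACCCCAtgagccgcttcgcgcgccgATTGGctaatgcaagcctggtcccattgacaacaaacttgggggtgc
Insig1, chr5:28071162-28071362, + strand: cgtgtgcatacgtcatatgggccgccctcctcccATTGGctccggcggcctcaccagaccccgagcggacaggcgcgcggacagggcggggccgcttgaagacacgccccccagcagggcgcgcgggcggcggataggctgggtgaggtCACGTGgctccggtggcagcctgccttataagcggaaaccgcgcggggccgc

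In Srebf2 the core began 162 bases before the RefSeq start and lay 19 bases from the CCAAT box. In Hmgcs1 the core began 137 bases before the start, and the nearest CCAAT box lay 34 bases away. These matches describe letters, and binding was not measured.

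Levels are given as normalized CPM, which are counts scaled to the total of reads in genes and then by edgeR's TMM (trimmed mean of M values) factor of the library. Per kilobase of annotated exon, the mean over the 8 libraries was 23.2 for Hmgcs1 (11.8 to 29.4), 16.2 for Insig1 (13.9 to 21.7), 14.2 for Sqle (11.8 to 17.2), 7.92 for Srebf2 (5.13 to 9.16), 5.06 for Idi1 (2.31 to 8.50), 2.64 for Lss (2.17 to 3.19) and 0.296 for Fdps (0.166 to 0.434). In this order the ranges of Sqle and Srebf2 did not overlap, nor did those of Lss and Fdps, while every other pair of neighbours overlapped. Over the libraries Idi1 varied most, with a highest level 3.68 times its lowest, and Sqle least, at 1.46 times. The lowest Idi1 value came from the manganese library, which stood apart, and the rank of Idi1 rests on it. Without that library the lowest Idi1 was 3.54 per kilobase (LSKO replicate 1), above the range of Lss. The place of Fdps is uncertain, since its reads may be split between copies or set aside as ambiguous, as described below.

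**Figure D1:**
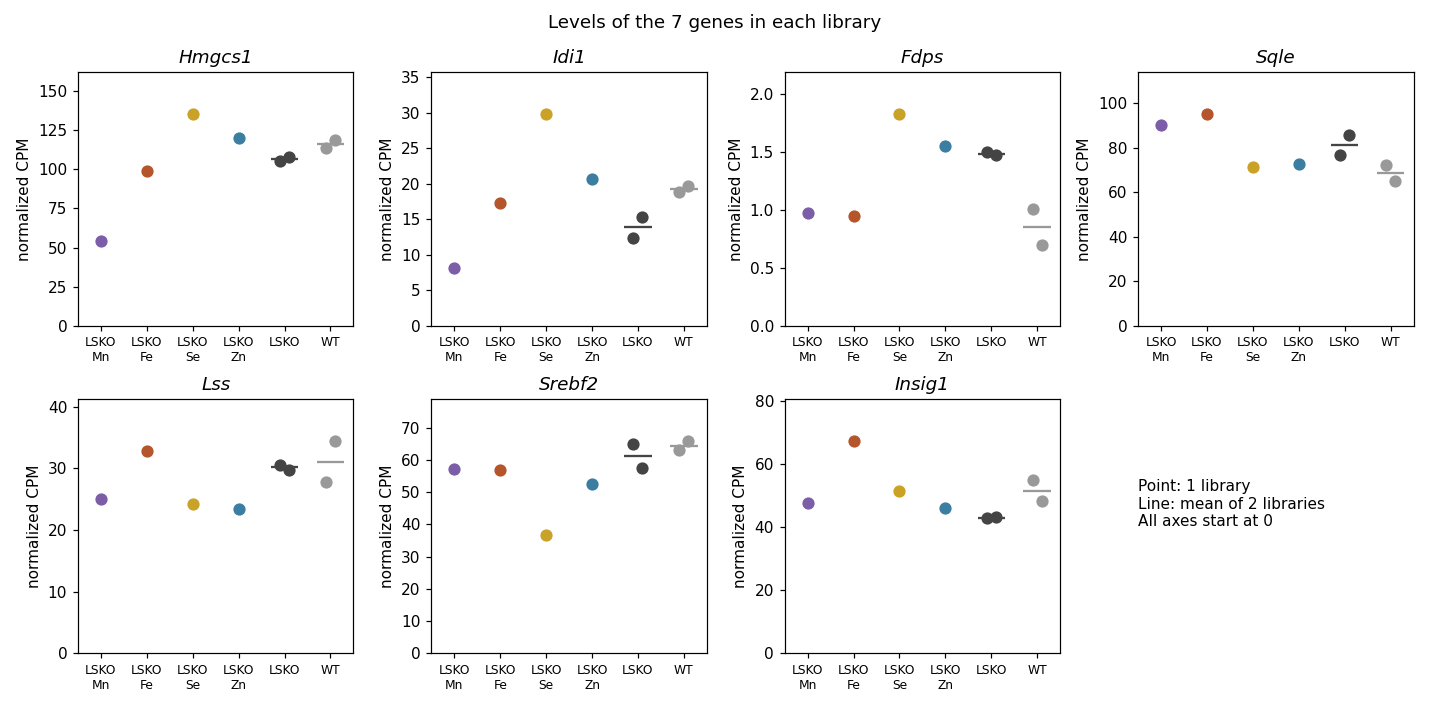
Normalized CPM (vertical axes, each from 0) of the 7 genes in LSKO cells with manganese (Mn), iron (Fe), selenite (Se) and zinc (Zn), in untreated LSKO cells and in untreated WT cells. Each point is 1 library and each line the mean of a pair; the selenite library has the highest Idi1 (29.8) and the lowest Srebf2 (36.9), and the manganese library the lowest Hmgcs1 (54.3) and Idi1 (8.09).

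Each treatment was compared with untreated LSKO cells to ask what it changed in cells with the ZIP8 knockout. Below, the word metal covers the selenite treatment too, though selenium is not a metal. To be called, a gene needed an adjusted p (Benjamini-Hochberg, edgeR's quasi-likelihood test) under 0.05 and a log2 fold change of more than 0.5 in either direction; each log2 fold change comes with its standard error (SE). No metal library has a replicate, so the spread between the untreated replicates stands in for theirs, and the comparisons of the metals share the 2 untreated LSKO libraries. With 7 genes a single call moves the share widely, so counts of calls are given as a description beside the share over all genes.

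After selenite, the isomerase gene Idi1 rose, the regulator gene Srebf2 fell and the other 5 genes were not called. Of all genes tested, 17.6% were called in this comparison, 7.89% higher and 9.67% lower. Idi1 (ENSMUSG00000058258, chromosome 13, 8885501 to 8892451) encodes isopentenyl-diphosphate isomerase, which converts the first isoprenoid unit into its reactive isomer. It had 29.8 normalized CPM with selenite, against 12.4 and 15.3 in untreated LSKO cells. The selenite value lay above all 7 other libraries. The log2 fold change was 1.10 (SE 0.151, edgeR adjusted p = 0.000836). It was 0.92 without LSKO replicate 1, 1.23 without LSKO replicate 2 and 0.82 after correcting for the length and GC content of transcripts (edgeR adjusted p = 0.00702). The sum of hepatocyte markers was also highest with selenite (48415 normalized CPM), and its part in this result was not tested.

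Srebf2 (ENSMUSG00000022463, chromosome 15, 82147181 to 82205379) had 36.9 normalized CPM with selenite, against 64.9 and 57.7 in untreated LSKO cells. This was the lowest of the 8 libraries, the next being 52.6 with zinc. The log2 fold change was -0.73 (SE 0.114, edgeR adjusted p = 0.00153), with -0.69 without LSKO replicate 1 and -0.85 without LSKO replicate 2. Corrected for length and GC content it was -0.18 (adjusted p = 0.245), and Srebf2 was no longer called. The transcript of Srebf2 had the highest GC content of the 7, 57.9%, and that of Idi1 the lowest, 41.9%. The factor that the correction gave Srebf2 was 0.721 in the selenite library and 0.953 to 1.15 in the other 7. For Idi1 it was 1.18 with selenite and 0.935 to 1.04 in the others.

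Hmgcs1 (ENSMUSG00000093930, chromosome 13, 119690379 to 119708260) encodes the cytosolic HMG-CoA synthase, which makes the substrate of mevalonate synthesis. It had 135 normalized CPM with selenite, against 106 and 108 in untreated LSKO cells. Selenite gave the highest value of the 8 libraries, yet the log2 fold change of 0.34 (SE 0.0894, edgeR adjusted p = 0.0191) was under the fold threshold, and it was 0.15 with the correction. Insig1 (ENSMUSG00000045294, chromosome 5, 28071363 to 28078662) had 51.6 with selenite and a log2 fold change of 0.26 (adjusted p = 0.107). Sqle (ENSMUSG00000022351, chromosome 15, 59315077 to 59331192), which encodes squalene epoxidase, had 71.5 with selenite, against 76.6 and 86.0 in untreated LSKO cells, and a log2 fold change of -0.19 (adjusted p = 0.235).

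Lss (ENSMUSG00000033105, chromosome 10, 76531588 to 76557138), the lanosterol synthase that closes the sterol rings, had 24.2 normalized CPM with selenite, against 30.6 and 29.7 in untreated LSKO cells. The 1 selenite value lay below both, as did those with zinc (23.4) and manganese (25.1). The log2 fold change with selenite of -0.32 (SE 0.148, edgeR adjusted p = 0.133) did not pass, and it was -0.02 with the correction (adjusted p = 0.940). Fdps (ENSMUSG00000059743, chromosome 3, 89093588 to 89101959) encodes farnesyl diphosphate synthase. Its reads numbered only 16 to 40 in the 8 libraries, and its log2 fold change with selenite of 0.30 had a 95% interval of -0.62 to 1.22.

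Fdps has 6 annotated processed pseudogenes that align to its transcript with 88.5% to 98.9% identity, and these held 166 to 310 reads per library, more than Fdps itself in each. With these reads added, the log2 fold change of Fdps was 0.20 with selenite, 0.18 with zinc, -0.15 with iron and -0.20 with manganese against untreated LSKO cells, and 0.02 in untreated LSKO against WT cells. Reads of Fdps may therefore be split between copies, and its values are uncertain. The gene Gm43738, on the same strand, covers 26.7% of the exon bases of Fdps and had 0 to 3 reads. Reads on bases shared by both genes can be set aside as ambiguous, so these few reads do not show that the overlap cost Fdps little. How many Fdps reads were set aside in this way was not tested. The 5 pseudogenes of Idi1 held 1 to 9 reads per library in sum and the pseudogene of Insig1 0 to 17.

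**Figure D2:**
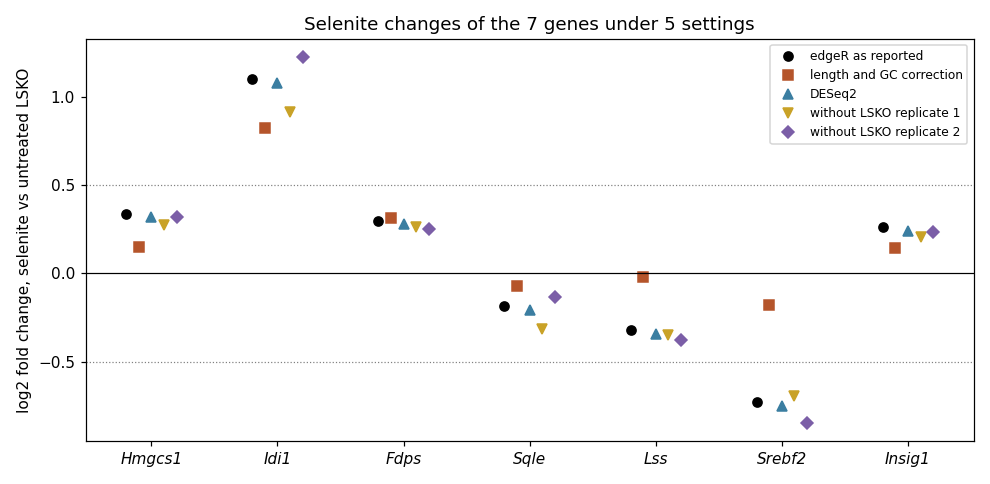
Log2 fold change of the 7 genes in selenite-treated against untreated LSKO cells (vertical axis) under 5 settings, marked by symbol, with dotted lines at the fold threshold of 0.5. Idi1 stays above the threshold, at 0.82 with the length and GC correction (square), while Srebf2 moves to -0.18 with that correction.

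With iron, Insig1 was the only one of the 7 genes called, and it was higher, where 8.7% of all genes were called (3.8% higher and 4.89% lower). INSIG1 retains SREBP2 in the endoplasmic reticulum and is itself made from an SREBP target gene. Insig1 had 67.2 normalized CPM with iron, against 42.9 and 43.2 in untreated LSKO cells. The iron value was the highest of the 8 libraries, and the next highest was 54.8 in WT replicate 1. The log2 fold change was 0.64 (SE 0.109, edgeR adjusted p = 0.00423), and it ran from 0.61 to 0.64, and was called, in all 13 alternative settings. The iron library also had the lowest sums of sinusoidal endothelial, stellate cell and cholangiocyte markers (106, 17.1 and 25.9 normalized CPM), and their part in this result was not tested.

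The enzymes were not called with iron. Idi1 had 17.3 normalized CPM, changed by 0.32 on the log2 scale (adjusted p = 0.224), Sqle had 95.1, the highest of its 8 values, and 0.23 (adjusted p = 0.198), and Lss had 32.8 and 0.12. Hmgcs1 had 98.7, below both untreated LSKO libraries, with -0.11 (adjusted p = 0.449). Srebf2 had 57.0 and a log2 fold change of -0.10, and Fdps had -0.65 on 19 reads (95% interval -1.68 to 0.39).

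With zinc, 0 of the 7 genes were called by edgeR, where 4.45% of all genes were (2.9% higher and 1.55% lower). Unadjusted p was under 0.05 for 2 of the 7, Idi1 and Lss, and for 2876 of all 15468 genes tested. DESeq2 also called 0 of the 7. Idi1 had 20.6 normalized CPM with zinc, against 12.4 and 15.3 in untreated LSKO cells, which is above both. Its log2 fold change was 0.57 (SE 0.154, edgeR adjusted p = 0.0642). With each untreated library left out in turn it ran from 0.43 to 0.74, highest without LSKO replicate 2. Hmgcs1 had 120 and a log2 fold change of 0.17, Srebf2 had 52.6 and -0.22, Insig1 had 46.1 and 0.10, and Lss had 23.4, the lowest of its 8 values, and -0.36 (adjusted p = 0.217).

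The library given manganese had the lowest values of Hmgcs1 and Idi1, the only members called, where 17.2% of all genes were called (2.09% higher and 15.1% lower). Hmgcs1 had 54.3 normalized CPM with manganese, against 106 and 108 in untreated LSKO cells, and 98.7 or more in every other library. The log2 fold change was -0.97 (SE 0.0960, edgeR adjusted p = 1.57e-05). Idi1 had 8.09 normalized CPM, against 12.4 and 15.3 in untreated LSKO cells, with a log2 fold change of -0.78 (SE 0.174, adjusted p = 0.00765). Sqle had 90.1 and a log2 fold change of 0.15, Insig1 had 47.8 and 0.15, Srebf2 had 57.1 and -0.10, and Lss had 25.1 and -0.27, and none of these passed.

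The fall of Hmgcs1 was smaller after the reads of an opposite-strand gene were subtracted, and that of Idi1 changed little. The read counts of the overlapping genes set how far each value could move, so this does not tell why either gene fell. An antisense gene, Gm48342, covers 557 bases of the exons of Hmgcs1 (12.1%), and had no reads with manganese (0), against 601 to 947 in each of the other 7 libraries. When the reads of this gene were subtracted from Hmgcs1 in every library, a setting chosen after seeing the data, the log2 fold change of Hmgcs1 with manganese was -0.45 (edgeR adjusted p = 0.00669) and it was no longer called. The gene Gm48574 covers 323 bases of Idi1 (9.22%) but had 1 to 11 reads outside the manganese library and 0 in it, and Idi1 stayed at -0.74 after the subtraction. The gene 4930483K19Rik covers 3.53% of the exons of Lss and had 58 to 115 reads, and 0 with manganese, and Lss moved to -0.10. The strand setting of the counting is not given in the sources used here, and without strand the reads of a gene and its antisense partner cannot be told apart.

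Over all protein-coding genes tested, the median log2 fold change with manganese was 0.07 where no exon was overlapped on the opposite strand, -0.03 at up to 5% of the exon bases, -0.16 at over 5 to 10%, -0.33 at over 10 to 20% and -0.95 above. With iron, zinc and selenite these medians lay between -0.09 and 0.03. Sqle, Srebf2 and Insig1 have no such overlap. Fitted over the 9900 genes without one, they had log2 fold changes with manganese of 0.07, -0.18 and 0.08, and Fdps had -0.68, none of them called, and 74 genes were higher and 62 lower. Why the manganese library differs was not tested.

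**Figure D3:**
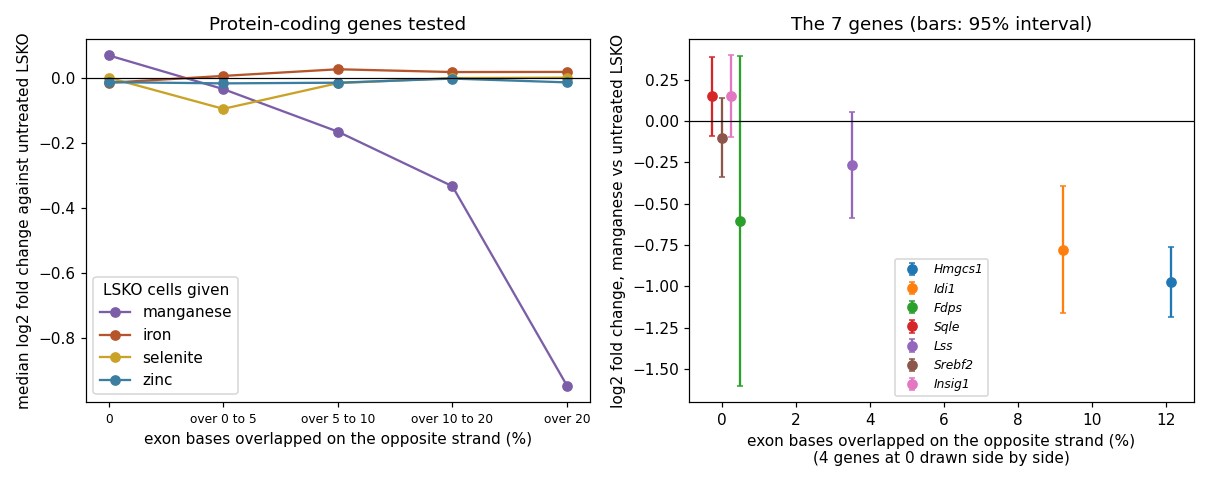
Log2 fold change against untreated LSKO cells (vertical axes) by the share of exon bases overlapped by a gene on the opposite strand (horizontal axes, %). Left, medians of protein-coding genes for each of the 4 treatments, where manganese falls to -0.95 and the others stay between -0.09 and 0.03; right, the 7 genes with manganese and their 95% intervals, from Sqle and Insig1 at 0.15 with no overlap to Hmgcs1 at -0.97 with 12.1%.

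The knockout without added metal was read from untreated LSKO against untreated WT cells. In this comparison 0 of the 7 genes were called by edgeR, where 10.4% of all genes were (6.74% higher and 3.7% lower). Unadjusted p was under 0.05 for 3 of the 7, Idi1, Sqle and Insig1, and for 4459 of all 15468 genes tested. DESeq2 also called 0 of the 7. Idi1 had 12.4 and 15.3 normalized CPM in untreated LSKO cells, against 18.8 and 19.7 in WT cells. Both LSKO values lay below both WT values, and the log2 fold change of -0.47 (SE 0.129, edgeR adjusted p = 0.0326) was just under the fold threshold. Without LSKO replicate 2, the library with the lower Slc39a8, it was -0.62. With each untreated library left out in turn, it ran from -0.62 to -0.31. All 8 hepatocyte markers were called higher in untreated LSKO cells in the same comparison, and their part in these values was not tested.

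Hmgcs1 had 106 and 108 normalized CPM in untreated LSKO cells, against 113 and 119 in WT cells (log2 fold change -0.12, edgeR adjusted p = 0.319). Insig1 had 42.9 and 43.2, against 54.8 and 48.3 (-0.26, adjusted p = 0.0793). Sqle had 76.6 and 86.0, against 72.1 and 65.2 (0.24, adjusted p = 0.0939). These groups did not overlap, with both LSKO values of Hmgcs1 and Insig1 lower than in WT and those of Sqle higher. The share of all genes with such a separation was not counted, so it only describes these genes, Idi1 and Fdps. Srebf2 had 64.9 and 57.7, against 63.1 and 65.8, and Lss had 30.6 and 29.7, against 27.8 and 34.4. Both pairs overlapped, with log2 fold changes of -0.07 and -0.04. Fdps averaged 1.48 ± 0.0185 normalized CPM in untreated LSKO cells, from 34 and 40 reads, and 0.852 ± 0.218 in WT cells, from 29 and 16 reads (SD, n = 2 each). The pairs did not overlap, but the log2 fold change of 0.78 (SE 0.362, edgeR adjusted p = 0.185) did not pass, and it was 0.02 with the pseudogene reads added.

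**Figure D4:**
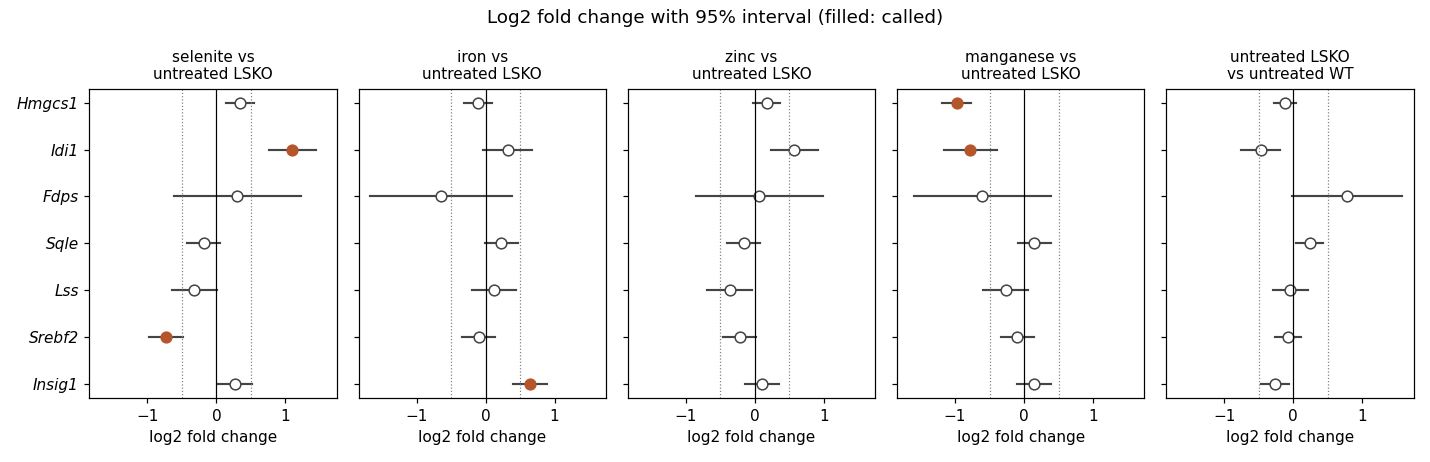
Log2 fold change (horizontal axes) with its 95% interval for the 7 genes in the 4 comparisons of a metal with untreated LSKO cells and in that of untreated LSKO with untreated WT cells. Filled points were called, dotted lines mark the fold threshold of 0.5; Idi1 lies at 1.10 with selenite and at -0.78 with manganese, and Insig1 at 0.64 with iron.

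The metals were also compared with each other. In selenite against iron, where 24.8% of all genes were called (12.3% higher and 12.5% lower), Idi1 was higher and Srebf2 lower. Idi1 had 29.8 normalized CPM with selenite and 17.3 with iron (log2 fold change 0.78, SE 0.180, edgeR adjusted p = 0.00856). Srebf2 had 36.9 with selenite and 57.0 with iron (-0.63, SE 0.129, adjusted p = 0.00488). After the length and GC correction neither was called, with 0.51 for Idi1 (adjusted p = 0.0637) and 0.05 for Srebf2 (adjusted p = 0.802).

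In selenite against zinc, 0 of the 7 were called, where 2.92% of all genes were (0.95% higher and 1.97% lower). Unadjusted p was under 0.05 for 2 of the 7 and for 3619 of all 15468 genes tested. The 2 were Idi1 at 0.53 (edgeR adjusted p = 0.108, 95% interval 0.14 to 0.92) and Srebf2 at -0.51 (adjusted p = 0.0566, interval -0.80 to -0.23), and DESeq2 called 0 of the 7. Corrected for length and GC content, Srebf2 was at -0.11 (adjusted p = 0.640). In iron against zinc, where 8.24% of all genes were called (3.23% higher and 5.01% lower), Insig1 was higher, with 67.2 normalized CPM with iron and 46.1 with zinc (0.54, SE 0.128, adjusted p = 0.0261). DESeq2 gave 0.53 for it (adjusted p = 0.0866), and it was not called.

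The iron, selenite and zinc libraries were set as a mean against WT cells, and 0 of the 7 genes were called by edgeR, where 14% of all genes were (7.12% higher and 6.93% lower). Unadjusted p was under 0.05 for 2 of the 7, Srebf2 and Sqle, and for 6101 of all 15468 genes tested. DESeq2 called 0 of the 7. Srebf2 had 57.0, 36.9 and 52.6 normalized CPM with iron, selenite and zinc, against 63.1 and 65.8 in WT cells. All 3 treated values were lower, and the log2 fold change of -0.43 (SE 0.0801, edgeR adjusted p = 0.00368) was under the fold threshold. With the length and GC correction it was -0.20 (adjusted p = 0.0574).

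The enzyme genes were read beside the rest of their pathway in a list of 22 enzymes, which includes the 5 above. With selenite, 3 were higher and 0 lower, beside 7.89% and 9.67% over all genes, with a median log2 fold change of 0.21, against -0.01 over all genes tested. The 3 were Idi1, Nsdhl, a sterol dehydrogenase of the late pathway (0.52), and Acat2, an acetyl-CoA acetyltransferase that supplies its first step (0.52). Nsdhl had 29.2 normalized CPM with selenite, against 20.1 and 20.5 in untreated LSKO cells, and Acat2 had 30.8, against 19.5 and 23.4. Both lay close to the fold threshold and were not examined singly under the length and GC correction. That correction called 1406 of all genes, in place of 2717, and the median of 0.21 was taken without it. With iron 0 were higher and 1 was lower (4.89% over all genes), the sterol isomerase gene Ebp, at -0.54 with 32.7 normalized CPM, against 45.8 and 49.0. With zinc and in untreated LSKO against WT cells 0 were called in either direction.

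With manganese 0 enzymes were higher, and Hmgcs1 and Idi1 were among those lower. Both belong to the 8 enzymes with an exon overlapped on the opposite strand, whose median log2 fold change was -0.40. Over protein-coding genes with an overlap, medians ran from -0.03 to -0.95 by its share. Of the 14 enzymes without such an overlap 0 were called. Their median was -0.18, against 0.07 over protein-coding genes without one and -0.02 over all genes tested. In the separate fit of the 9900 genes without one, 74 were higher and 62 lower.

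Of 13 genes of sterol sensing and SREBP processing, 0 were higher and 2 lower with selenite (7.89% and 9.67% over all genes), Srebf2 and Mbtps1 (-0.56), whose protease makes the first cut in SREBP in the Golgi. Mbtps1 had 33.2 normalized CPM with selenite, against 50.9 and 46.9. With the length and GC correction Srebf2 was not called (-0.18), and 1406 of all genes were called, in place of 2717. Listed genes outside the 7, among the enzymes, here and in the next list, were not examined singly under this correction. With iron 1 was higher (3.8% over all genes), Insig1, and with manganese and zinc 0 were called. Insig2, which encodes the second INSIG protein, exceeded its WT level in untreated LSKO cells (370 and 437 normalized CPM, against 282 and 271 in WT cells). Its log2 fold change was 0.54 (edgeR adjusted p = 0.00240), and it was the only gene of this list called there (6.74% higher over all genes). The hepatocyte markers were also higher in that comparison, and their part in this value was not tested.

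Of 16 genes of cholesterol uptake, storage and efflux, 1 was higher and 2 lower with selenite, beside 7.89% and 9.67% over all genes. Stard4, a carrier of sterol between membranes, had 0.60, Npc1, which exports cholesterol from lysosomes, had -0.76, and Soat2, which esterifies cholesterol in hepatocytes, had -0.61. With iron 3 were higher and 0 lower (3.8% and 4.89% over all genes), the exporter gene Abcg1 at 0.96, Soat2 at 0.74 and Npc1 at 0.51. The Abcg1 call was borderline (SE 0.280, edgeR adjusted p = 0.0494) and its levels were low. It had 5.63 normalized CPM with iron and 5.51 with manganese, against 3.39 and 2.43 in untreated LSKO cells. With manganese 2 were higher (2.09% over all genes), Soat2 at 0.94 and Abcg1 at 0.93, neither of which has an opposite-strand overlap. With zinc 0 were called. Untreated LSKO cells had 2 higher than WT cells (6.74% over all genes), Abcg5, a sterol exporter into bile (1.33), and Nr1h3, which encodes the sterol receptor LXRα (0.54). Abcg5 was low, with 3.57 and 4.16 normalized CPM, against 1.70 and 1.35 in WT cells. All 8 hepatocyte markers were also called higher there, and their part in these values was not tested. Over the 44 genes of these lists outside the 7, the median log2 fold change was -0.04 with selenite, -0.03 with iron, -0.09 with zinc, 0.02 with manganese and 0.08 in untreated LSKO against WT cells.

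The 7 genes did not move as a block over the libraries. Of their 21 pairs, Hmgcs1 and Idi1 had the highest Pearson correlation of log2 normalized CPM over the 8 libraries, 0.90, and Srebf2 and Lss the next, 0.64. The lowest were Hmgcs1 and Sqle, at -0.64. Srebf2 and Idi1 had -0.55. Each point behind these values is 1 library, and its depth and base composition are shared by all genes in it. The manganese library, which stood apart, was included, and it had the lowest Hmgcs1 (54.3 normalized CPM) and Idi1 (8.09). Its part in these correlations was not tested. The genes most like each member over these libraries were Ube2l3, Sacm1l and Ntan1 for Hmgcs1 (0.99 each), Tuba1b (0.98), Tatdn1 and Rab7 (0.97 each) for Idi1, Os9 (0.99), Pqlc1 (0.98) and Pskh1 (0.97) for Sqle, and Map3k4, Bcl3 and Ap2a1 (0.99 each) for Srebf2. They were Dnajc21, Wdr43 and Ddx18 (0.96 each) for Insig1, Spon2 (0.98), Tbc1d7 and Nt5dc1 (0.96 each) for Fdps, and Hnrnpd, Nup214 (0.96 each) and Fam208a (0.95) for Lss. None of these likest genes was on the cholesterol lists.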

How the data were processed

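RNA of 8 libraries in 6 groups was sequenced from primary hepatocytes. The authors deposited raw counts of reads per gene, made with Trimmomatic, hisat2 and HTSeq-Count on GRCm38, per the paper and the submitters' processing notes. The annotation release and the strand setting are not stated in the sources used. Summary counts that name no gene took 27.8% to 60.7% of reads and stayed out of library sizes and tests. Identifiers were matched to GENCODE M21, and all 55450 were found.

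Genes with at least 80 counts in sum were fitted as 6 groups by edgeR 4.0.16 (R 4.3.3, TMM factors of 0.867 to 1.06, quasi-likelihood F-test, 2 residual and 8.53 prior degrees of freedom). Standard errors are the size of the log2 fold change over the square root of F. The tests were checked on simulated counts. Alternatives were DESeq2 1.42.0, RLE size factors, other filters, no fold threshold, each untreated library left out, only the libraries compared, replicate blocks and a length and GC correction (splines by robust regression, MASS 7.3.60.0.1). Settings added after seeing the data concern pseudogenes, overlapping genes, the manganese library and crossed pairs.

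The members and lists were chosen with earlier results of these data known. Named genes are the 7 members, up to 4 called genes of each pathway list with the largest changes in each comparison of a metal or of the knockout, and for likeness the 3 protein-coding genes of at least 100 mean counts with the highest correlation. Replicates differed beyond counting error, the chi-square being 13.3 times its degrees of freedom for LSKO and 5.98 times for WT. A result of the enzyme list is not reported here.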

Additional observations from a re-analysis of the deposited data

Results flagged for a closer look

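Of the 7 genes, 3 differed between metals by the test of the difference itself. Over all genes, 24.8% were called in selenite against iron and 8.24% in iron against zinc, so the count only describes these genes. Idi1 was higher with selenite than with iron, by 0.78 on the log2 scale (29.8 and 17.3 normalized CPM). Srebf2 was lower with selenite than with iron, with a log2 fold change of -0.63 (36.9 and 57.0 normalized CPM). With the length and GC correction this value was 0.0457. Insig1 was higher with iron than with zinc, by 0.54 (67.2 and 46.1 normalized CPM). Each value rests on 1 library on each side, and every one of the 3 calls was lost in at least 1 alternative setting.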

How the results depend on the processing

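Of 806 values of the 7 genes under alternatives, 770 kept their direction and side of the thresholds, 12 came to pass, 6 no longer passed and 18 changed sign, 17 of these in results that were not called. The number of the 7 called moved as follows, and the cause was not tested. The length and GC correction left 1 in selenite against untreated LSKO cells and 0 in selenite against iron, in place of 2 each. Subtracting opposite-strand reads left 1 of 2 with manganese, and genes free of such overlap hold neither of the 2. Without a fold threshold there were 3 with selenite and 5 in selenite against iron (2 each with it), and 1 in untreated LSKO and 1 in the 3 metals against WT cells (0 with it). With no filter there was 1 with zinc and 1 in selenite against zinc (0 with it). DESeq2 gave 0 in iron against zinc, in place of 1. With a replicate left out the count ran from 0 to 1 with zinc and in untreated LSKO against WT cells (1 without LSKO replicate 2), in selenite against zinc (1 without either LSKO replicate) and in iron against zinc (0 without either WT replicate).

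In the changes of sign, Srebf2 in untreated LSKO against WT cells ran from -0.131 to 0.0235 with a replicate left out and Lss from -0.164 to 0.137, and Lss was 0.0318 with the length and GC correction. That correction gave 0.0526 for Sqle in selenite against zinc, 0.0457 for Srebf2 in selenite against iron and -0.156 in iron against zinc, and -0.0796 for Hmgcs1 and -0.0157 for Insig1 in the 3 metals against WT cells. Lss in selenite against zinc was -0.00285 with any replicate left out. Hmgcs1 in the 3 metals against WT cells was -0.00260 with RLE factors, -0.00267 with DESeq2, -0.0126 with no filter, -0.00337 with filterByExpr and -0.0126 to 0.0445 with a replicate left out, where Insig1 had -0.0151 to 0.174.

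Over all genes, DESeq2 called 1649 with selenite (edgeR 2717), 750 with iron (1345), 415 with zinc (688), 1039 in untreated LSKO against WT cells (1615), 286 in selenite against zinc (451), 2511 in selenite against iron (3838), 658 in iron against zinc (1275) and 1371 in the 3 metals against WT cells (2173). The length and GC correction called 1406, 2443 in selenite against iron and 34 in selenite against zinc (20 higher and 14 lower, in place of 147 and 304). No filter gave 1164 with zinc and 1276 in selenite against zinc, and no fold threshold 4132 with selenite and 4169 in the 3 metals against WT cells. Without a WT replicate there were 0 in selenite against zinc, 500 in iron against zinc (144 higher and 356 lower, in place of 500 and 775), 735 and 778 in untreated LSKO against WT cells, and 1022 in the 3 metals against WT cells (replicate 2). Without an LSKO replicate there were 1274 and 1278 in selenite against zinc, and 1014 in untreated LSKO against WT cells (replicate 2). With manganese, genes free of opposite-strand overlap gave 74 higher and 62 lower, in place of 324 and 2330.

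With the replicate number as a block, untreated LSKO against WT cells gave 0 of the 7 genes and 1725 of all, and the crossed pairing 0 and 1720. Same-numbered libraries correlated at -0.12 over 10882 genes, so numbers were not taken as pairs. No gene is named as a member followed by ps, so that search for pseudogenes was not run. Low counts limit Fdps most (16 to 40 reads).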

Other observations

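Genes of cholesterol handling outside the 7 also differed between selenite and iron. These genes were chosen after their values were seen, and were not examined singly under the length and GC correction. Soat2 had 26.4 normalized CPM with selenite and 67.2 with iron, that is -1.35 on the log2 scale (SE 0.128, edgeR adjusted p = 0.000185). Npc1 had 62.8 with selenite and 152 with iron (-1.28, SE 0.148, edgeR adjusted p = 0.000331). The untreated LSKO libraries lay between, with 42.2 and 38.5 for Soat2 and 117 and 96.9 for Npc1. Ebp ran the other way, with 64.8 with selenite and 32.7 with iron (0.99, adjusted p = 0.000660), and again both untreated LSKO values, 45.8 and 49.0, lay between. Of the 44 genes of the cholesterol lists outside the 7, 6 were higher and 6 lower in selenite against iron, near the 12.3% and 12.5% over all genes.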
